A study of Ovis aries with 15 samples.

Results

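The 6 B cell genes MS4A1, CD79A, CD79B, CD22, PAX5 and POU2AF1 were followed by gene symbol in RNA-seq of sheep kidney, 6 of 25592 genes in 15 libraries. They were chosen by name with their measured expression levels in these libraries known, since all 6 had their 2 highest levels in the same 2 libraries, and those levels are therefore a description and carry no test. By the study's methods the RNA came from a frozen piece of kidney. Its cells were unsorted, so fewer B cells and less RNA per B cell cannot be told apart in any value given here. B cells carry an antigen receptor made of a membrane immunoglobulin and the signal chains CD79A and CD79B, and they leave the blood to settle in lymph nodes, the spleen and inflamed tissue. PAX5 is the factor that holds a cell in the B lineage, and it is switched off when a B cell becomes an antibody-secreting plasma cell. POU2AF1 stays on in plasma cells. A healthy kidney holds few B cells, whereas follicle-like clusters of B cells can form in a chronically inflamed one.

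Male Dorper × Small-tailed Han crossed sheep, 4 months old and housed 2 to a pen, were fed for 21 days. The CON group received a basal total mixed ration. The AFB1 group received the ration with aflatoxin B1 (AFB1), a liver-toxic mould product, at 500 µg per kg of dry matter. The AFB1_CUR group received that dose together with curcumin (CUR), the yellow pigment of turmeric, at 800 mg per kg of dry matter, so that no group had CUR alone. Samples labelled as kidney from 5 of the 6 sheep in a group were sequenced, and a library is named by its group and replicate number. Levels are in FPKM, the unit the authors deposited beside the read counts, which scales the fragments of a gene by its length and by the library size, so that genes can be ordered within a library.

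Total counts ran from 50255295 to 68747047 per library, and 3 libraries stood apart. The library labelled AFB1 replicate 1 went against its label as kidney. The summed FPKM of 11 hepatocyte genes was 53535 in it and between 46.4 and 347 in each of the remaining 14, while 8 proximal tubule genes summed to 2.83 against 890 to 2728. AFB1 replicate 2 and AFB1_CUR replicate 2 were rich in leukocyte transcripts. The summed FPKM of 7 genes shared by all leukocytes was 314 and 487 in them, and 41.9 to 150 in the 12 libraries left when all 3 are set aside. In AFB1 replicate 2, 6 of the 11 hepatocyte genes were above all of those 12, where 22.6% of all genes tested were. ALB was at 23.9 FPKM there, against at most 11.8 in the 12 and 25681 in AFB1 replicate 1. In AFB1_CUR replicate 2, 0 of the 11 were above the 12. In AFB1_CUR replicate 2 the proximal tubule sum of 890 lay below the 985 to 2728 of those 12 libraries, and in AFB1 replicate 2 it was 1400, within them. What part such differences in tissue content had in the B cell genes was not tested.

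CD79A, the first signal chain of the B cell receptor, was the most abundant of the 6 genes in 15 of 15 libraries by FPKM. The gene lies on chromosome 14 from 50929463 to 50933111 on the minus strand. Its level in CON replicates 1 to 5 was 3.17, 5.72, 3.55, 2.35 and 0.536 FPKM. In AFB1 replicates 1 to 5 it was 2.12, 27.6, 4.55, 3.56 and 1.65 FPKM. The AFB1_CUR replicates 1 to 5 had 2.00, 62.6, 2.74, 2.86 and 3.05 FPKM. Apart from the 2 leukocyte-rich libraries, the groups overlapped, and CON replicate 5 was the lowest of the 15. CD79B, its partner chain, lies on chromosome 11 from 47862992 to 47866508 on the minus strand. It had 0.802, 1.11, 1.11, 0.273 and 0 FPKM in the CON libraries, 0.354, 9.13, 0.184, 0.626 and 0.276 in the AFB1 libraries, and 0.318, 37.1, 0.640, 0.249 and 0.261 in the AFB1_CUR libraries. CON replicate 5 had no CD79B read, which at its depth allows up to 0.0535 counts scaled to library size (CPM; 3 counts, counting error only). The next lowest library, AFB1 replicate 3, had 17 reads, or 0.270 CPM.

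MS4A1, which encodes the surface protein CD20, lies on chromosome 15 from 81827891 to 81842947 on the plus strand. Its level was 0.115, 0.983, 0.667, 0.0928 and 0.0263 FPKM in CON replicates 1 to 5. In the AFB1 replicates it was 0.368, 7.57, 0.0992, 0.0924 and 0.0757 FPKM, and in the AFB1_CUR replicates 0.341, 46.3, 0.270, 0.191 and 0.144 FPKM. Within the CON group alone the highest library, replicate 2, and the lowest, replicate 5, bracketed every library outside the 2 leukocyte-rich ones. CD22, an inhibitory coreceptor that damps B cell receptor signals, lies on chromosome 14 from 45321057 to 45335008 on the plus strand. It had 0.408, 0.374, 0.334, 0.136 and 0.0738 FPKM in the CON libraries, 1.52, 2.86, 0.407, 0.180 and 0.0698 in the AFB1 libraries, and 0.211, 18.9, 0.254, 0.237 and 0.221 in the AFB1_CUR libraries. CD22 was the only member of the 6 that was higher in the liver-like AFB1 replicate 1 than in all of the 12 libraries, with 536 reads there against 26 to 178. The 3′ end of CD22 overlaps FFAR1 on the same strand, which had 1 to 31 reads per library.

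PAX5, the factor of B lineage identity, lies on chromosome 2 from 51663045 to 51849640 on the plus strand and was the lowest of the 6 genes in 14 of 15 libraries. The CON replicates 1 to 5 had 0.0183, 0.0339, 0.0335, 0.00461 and 0.00846 FPKM. In the AFB1 replicates it was 0, 0.475, 0.00371, 0 and 0.00730 FPKM, and in the AFB1_CUR replicates 0.0314, 4.17, 0.0220, 0.00856 and 0.00991 FPKM. Those values rest on 0 to 39 reads in the 12 libraries, against 432 in AFB1 replicate 2 and 3994 in AFB1_CUR replicate 2. The zeros of AFB1 replicates 1 and 4 allow up to 0.0535 and 0.0556 CPM, close to the 0.0635 of the 4 reads in AFB1 replicate 3, so no order can be read among these 3. POU2AF1, the coactivator that octamer-binding factors use at immunoglobulin promoters, lies on chromosome 15 from 21327413 to 21353017 on the minus strand. It had 0.107, 0.244, 0.244, 0.131 and 0.0551 FPKM in the CON libraries, 0.0445, 4.40, 0.0671, 0.423 and 0.0620 in the AFB1 libraries, and 0.107, 8.88, 0.146, 0.118 and 0.124 in the AFB1_CUR libraries. AFB1 replicate 4 was the highest of the 12 for POU2AF1 while it had no PAX5 read.

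**Figure D1:**
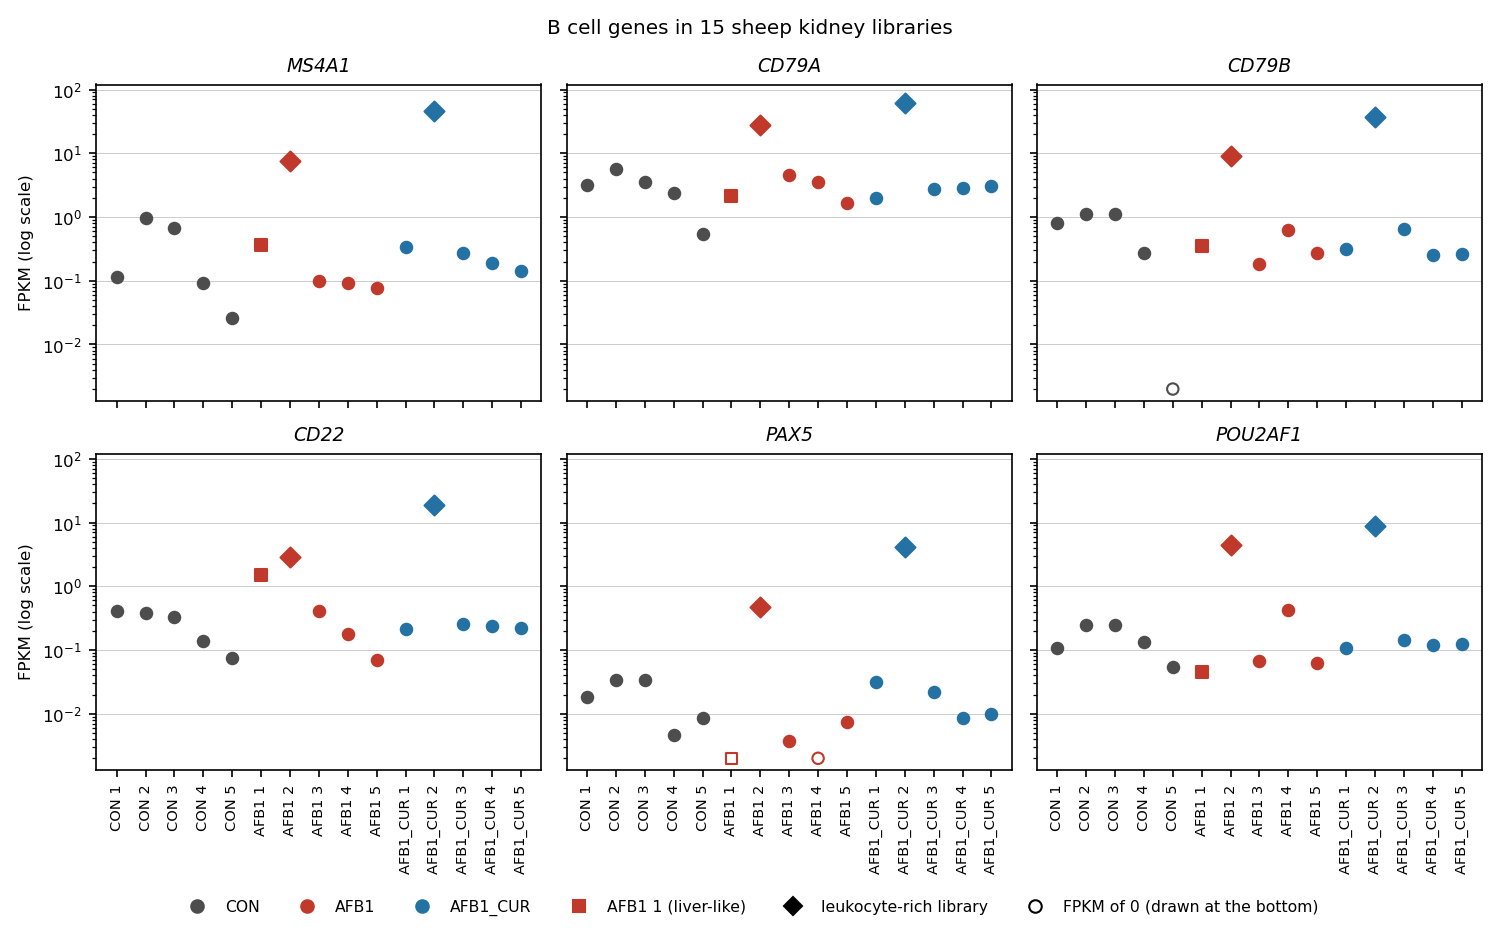
FPKM (log axis) of the 6 B cell genes in each of the 15 libraries, which stand along the horizontal axis, with 1 panel per gene. Points are coloured by group, the square marks the liver-like AFB1 replicate 1, diamonds mark the leukocyte-rich AFB1 replicate 2 and AFB1_CUR replicate 2, and open symbols at the bottom are values of 0. In every panel the AFB1_CUR replicate 2 diamond is the highest point and the AFB1 replicate 2 diamond the second.

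The order of the libraries was the same at its top for all members. AFB1_CUR replicate 2 had the highest level of 6 of 6 genes and AFB1 replicate 2 the second highest of 6 of 6, on FPKM and on CPM scaled by edgeR's trimmed mean of M values (TMM). For CD22 the second place on TMM-scaled CPM was close, at 16.1 in AFB1 replicate 2 against 15.4 in the liver-like AFB1 replicate 1. These 2 libraries held 68.5% of all CD79A reads of the series, 82.1% of those of CD22, 86.8% of POU2AF1, 86.9% of CD79B, 93.3% of MS4A1 and 95.7% of PAX5. Many other genes were high there too, since 36.1% of the 19815 genes tested were above all of the 12 libraries in AFB1_CUR replicate 2, 22.6% in AFB1 replicate 2 and 17.0% in both. At the bottom of the 12 libraries, CON replicate 5 was the lowest for 4 of the 6 genes. It was also the lowest of the 12 for summed T cell (16.3 FPKM), NK cell (17.0), myeloid (54.7) and all-leukocyte genes (41.9). Its proximal tubule sum of 2728 FPKM was the highest of the 12. Together the 6 genes had 115 reads in that library against 308 to 1038 in the other CON libraries, so spread within CON was wide for every member. The mean ± SD of CD79A in CON was 3.07 ± 1.88 FPKM (n = 5), and that of MS4A1 was 0.377 ± 0.425 FPKM (n = 5).

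The size of the excess differed between the genes. Against the median of the 12 libraries, MS4A1 was 58.4-fold higher in AFB1 replicate 2 and 357-fold higher in AFB1_CUR replicate 2. For PAX5 the same ratios were 51.5 and 452, on a median of 0.00924 FPKM that rests on few reads. POU2AF1 gave 36.4 and 73.3, CD79B gave 30.8 and 125, and CD22 gave 12.5 and 82.5. CD79A had the smallest ratios of the 6, 9.35 and 21.2, on the highest median, 2.96 FPKM. Between the 2 libraries themselves, AFB1_CUR replicate 2 had 8.78 times the FPKM of AFB1 replicate 2 for PAX5, 6.61 times for CD22, 6.11 times for MS4A1 and 4.06 times for CD79B. For CD79A and POU2AF1 the ratio was 2.27 and 2.02. Each of the 2 is 1 library of 1 sheep, so these ratios have no replicate check.

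Divided by CD79A in the same library, the genes kept different proportions. MS4A1 was 2.18% to 18.8% of CD79A in the 12 libraries (median 4.81%), 27.4% in AFB1 replicate 2 and 73.9% in AFB1_CUR replicate 2. CD79B was 0 to 31.3% of CD79A in the 12 (median 16.3%), and 33.1% and 59.2% in the 2 leukocyte-rich libraries. The 2 chains pair in the receptor, and the ratio of CD79A to CD79B was 1.69 in AFB1_CUR replicate 2 and 3.02 in AFB1 replicate 2, against 3.20 to 24.7 (median 5.97) in the 11 of the 12 libraries with a CD79B read. PAX5 was at most 1.58% of CD79A in the 12, 1.72% in AFB1 replicate 2 and 6.67% in AFB1_CUR replicate 2. For CD22 the share of 10.4% in AFB1 replicate 2 lay within the 4.24% to 13.8% of the 12 libraries, while AFB1_CUR replicate 2 had 30.2% and the liver-like AFB1 replicate 1 had 71.6%. POU2AF1 was the exception among the genes, with a similar share in AFB1 replicate 2 (15.9%) and in AFB1_CUR replicate 2 (14.2%), both above the 1.48% to 11.9% of the 12. CD79A made up 59.8% to 85.7% of the summed FPKM of the 6 genes in the 12 libraries and 35.2% in AFB1_CUR replicate 2.

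**Figure D2:**
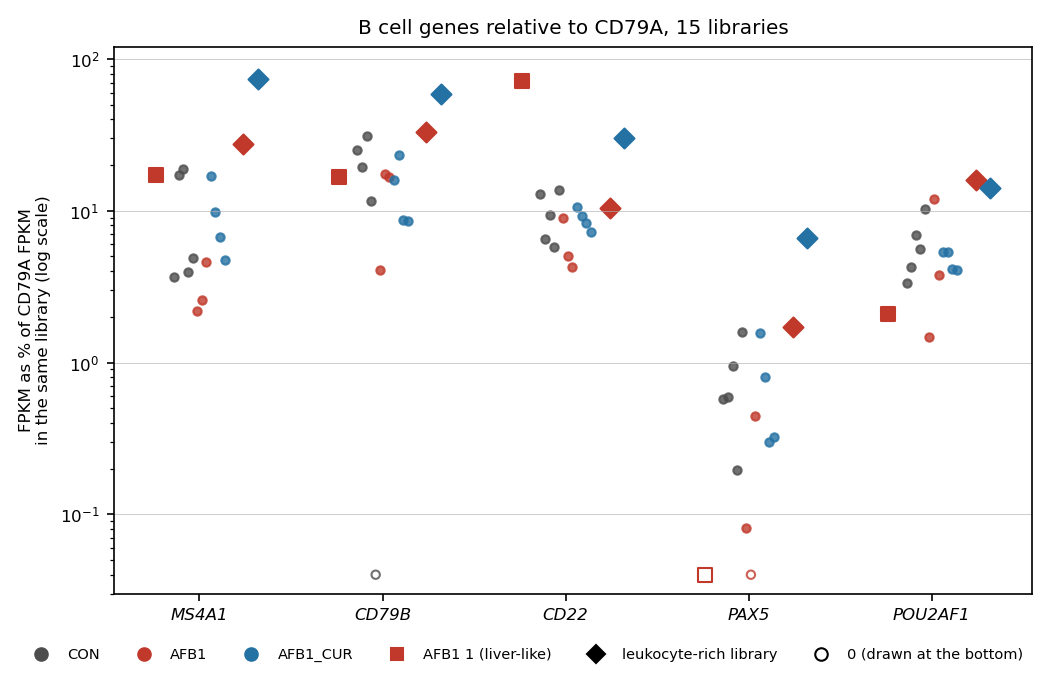
FPKM of 5 B cell genes as a percentage of CD79A FPKM in the same library (log axis), with small points for the 12 libraries, a square for the liver-like AFB1 replicate 1, diamonds for the 2 leukocyte-rich libraries and open symbols for 0. MS4A1, CD79B and PAX5 are highest in AFB1_CUR replicate 2, CD22 is highest in AFB1 replicate 1, and the 2 diamonds of POU2AF1 lie side by side at 15.9% and 14.2%.

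To show which B cell stages and which other leukocytes moved with the 6 genes, marker lists were summed in FPKM. Of 9 plasma cell genes, 8 were above all of the 12 libraries in AFB1 replicate 2 and 9 in AFB1_CUR replicate 2. Their sum, POU2AF1 included and JCHAIN its largest term, was 821 in AFB1 replicate 2 and 1084 in AFB1_CUR replicate 2, against 62.2 to 170 in the 12 libraries, which is 8.97 and 11.8 times their median. JCHAIN, the joining chain of secreted IgA and IgM, was at 559 and 856 FPKM against 6.27 to 82.3. SDC1, the plasma cell surface proteoglycan CD138, was the gene within the 12 in AFB1 replicate 2, at 1.06 FPKM against 0.615 to 1.345, and was at 2.84 in AFB1_CUR replicate 2. Between the 2 libraries 5 of the 9 genes, PRDM1, XBP1, MZB1, DERL3 and TENT5C, were higher in AFB1 replicate 2. MZB1, an endoplasmic reticulum protein needed for antibody secretion, differed most of these, with 77.6 FPKM in AFB1 replicate 2 and 46.5 in AFB1_CUR replicate 2 against 0.225 to 6.97. IRF4, which drives plasma cell differentiation, was also higher in AFB1 replicate 2, at 16.1 against 13.7 FPKM, and so was TNFRSF13B, the receptor TACI, at 4.02 against 2.66 FPKM.

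Genes of the germinal centre, where B cells divide and mutate their receptors, differed more between the 2 libraries. The sum of 8 genes was 15.4 FPKM in AFB1 replicate 2 and 68.3 in AFB1_CUR replicate 2, against 3.96 to 9.26 in the 12, or 2.25 and 9.95 times their median. RGS13, a regulator of G protein signalling, had no read in 13 libraries, 43 in AFB1 replicate 2 and 1898 in AFB1_CUR replicate 2. Against the highest limit that a count of 0 allows in any of the 12 libraries, 0.0597 CPM, these 2 values were at least 13.4-fold and at least 562-fold higher. MYBL1, a MYB family transcription factor of germinal centre B cells, was at 0.373 FPKM in AFB1 replicate 2, within the 0.182 to 0.470 of the 12, and at 3.96 in AFB1_CUR replicate 2. CXCR5, the receptor that brings B cells into follicles, was at 2.29 and 8.19 FPKM against 0 to 0.295, and its ligand CXCL13 at 22.2 and 28.8 FPKM against 0 to 2.24. The summed FPKM of 9 genes of lymphoid tissue chemokines and stroma was 114 and 340 against 28.0 to 68.0. This list shares CXCR5 with the germinal centre list and CR2 with the receptor list, so the sums are not separate. Of the 9, 8 and 9 were above all of the 12. CCL21 was the gene within the 12 in AFB1 replicate 2, at 23.2 FPKM against 12.7 to 36.1.

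Among the receptor partners, CR2, the complement receptor of B cells and follicular dendritic cells, was at 3.90 FPKM in AFB1 replicate 2 and 44.8 in AFB1_CUR replicate 2, against 0.0186 to 0.249 in the 12 libraries. It was also at 3.10 FPKM in the liver-like AFB1 replicate 1. Over the whole list of 17 receptor and coreceptor genes, 15 were above all of the 12 libraries in AFB1 replicate 2 and 16 in AFB1_CUR replicate 2. Its summed FPKM, to which the widely expressed CD81 gave most, was 443 and 653 against 251 to 379. Of 9 B cell transcription factors, 7 and 9 were above all of the 12, with sums of 64.1 and 115 against 10.04 to 26.7. The 11 survival and costimulation genes summed to 40.8 and 89.9 against 16.5 to 35.1, with 6 and 10 above all of the 12.

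Summed transcripts of T cells and myeloid cells were also higher in these 2 libraries, by smaller factors than the sum of the 6 B cell genes. The 6 were chosen with their high levels there known, so this difference is a description and carries no test. All 9 measured T cell genes were above the 12 libraries in both, and their sum was 117 and 152 FPKM against 16.3 to 57.6, or 2.78 and 3.60 times the median. CD3E, a chain of the T cell receptor complex, was at 24.3 and 27.6 FPKM against 3.72 to 12.3. The sum of 10 myeloid genes was 269 and 340 FPKM against 54.7 to 161, and 445 in the liver-like AFB1 replicate 1. Of the 10, all 10 were above the 12 libraries in AFB1 replicate 2 and 9 in AFB1_CUR replicate 2. The exception, MARCO, was at 5.22 FPKM in AFB1 replicate 2, 43.6 times the median of the 12. It had 0 reads in AFB1_CUR replicate 2 and was at 23.1 FPKM in AFB1 replicate 1. The 4 NK cell genes summed to 49.4 and 58.0, within the 17.0 to 106 of the 12 libraries, with GNLY the largest term. Of the 4, NKG7 was above all of the 12 in both libraries, at 15.2 and 14.9 FPKM against at most 12.4, and NCR1 in AFB1_CUR replicate 2, at 0.978 against at most 0.652. The 4 red cell genes summed to 30.5 and 9.66, also within the 6.72 to 148 of the 12. The 8 genes of the loop and distal nephron summed to 2894 and 970 against 1102 to 2988, and to 3.74 in AFB1 replicate 1. The part of cell numbers in the B cell gene levels was not tested.

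**Figure D3:**
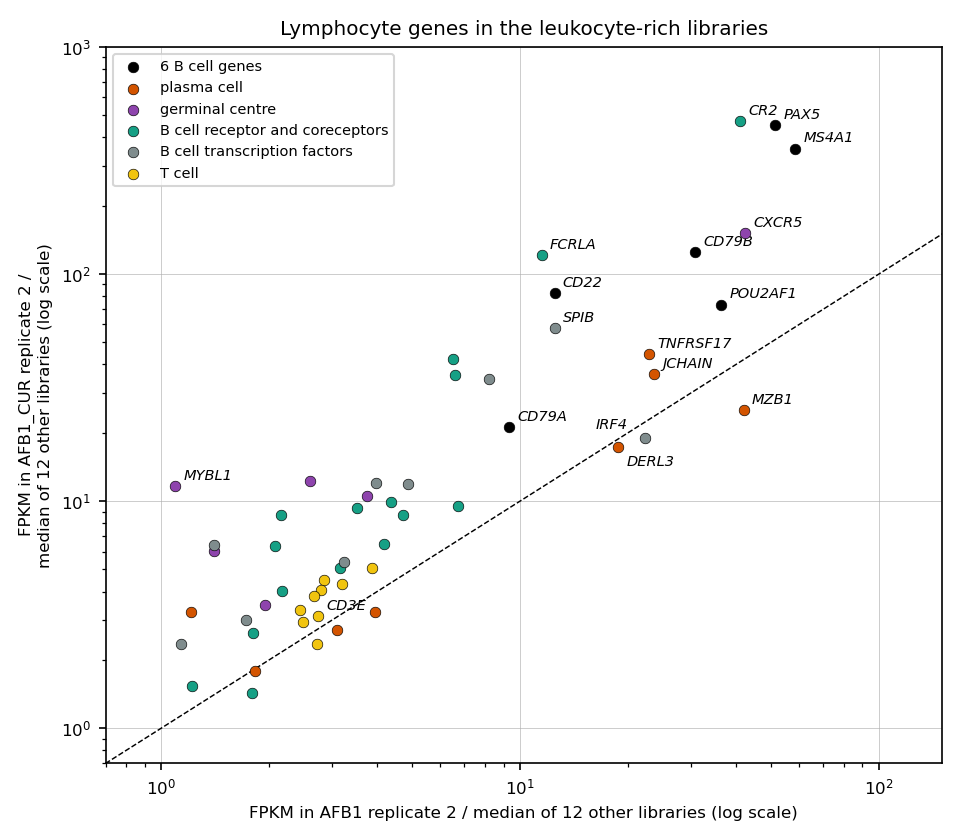
FPKM in AFB1 replicate 2 (horizontal) and in AFB1_CUR replicate 2 (vertical), each divided by the median of the 12 other libraries, on log axes, with 1 point per gene and colours for the gene lists. The dashed line marks equal ratios, genes with a median of 0 in the 12 libraries, such as RGS13, and genes not reported here are not drawn, and the 6 B cell genes (black) lie above the line while MZB1 and IRF4 lie below it.

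A gene was called where edgeR's quasi-likelihood test over all 15 libraries gave a p below 0.05 before adjustment and the fold change exceeded 1.5. Between AFB1 and CON 0 of the 6 genes were called, where 4.73% of all genes tested were called higher, 1.43% lower and 6.16% in either direction. The 6 estimates were above 0, from a log2 fold change of 1.34 (SE 0.999) for CD79A to 2.57 (SE 1.46) for POU2AF1, with a median of 2.09 against 0.03 over all genes. For 5 of the 6 they rested on AFB1 replicate 2, and for CD22 on AFB1 replicates 1 and 2. Without AFB1 replicate 2 the estimates were -0.79 for MS4A1, -0.61 for CD79B, -2.55 for PAX5, 0.14 for CD79A, 1.56 for CD22 and 0.04 for POU2AF1, and 0 of 6 were called. Without AFB1 replicate 1 the range was 1.54 to 2.89, with CD22 at 1.63, and 0 of 6 were called. CD22 was at -0.26 with both of these and AFB1_CUR replicate 2 left out. Leaving out AFB1_CUR replicate 2, which belongs to neither group but enters the shared estimate of spread, kept CD22 at 2.11 and POU2AF1 at 2.57 and called both. Of all 19815 genes tested, 970 were called higher in that fit and 292 lower. With all 3 libraries that stood apart left out, the mean ± SD of MS4A1 was 0.0891 ± 0.0121 FPKM in AFB1 (n = 3) and 0.377 ± 0.425 in CON (n = 5). The log2 fold change was then -1.96 (SE 0.91; edgeR's quasi-likelihood test, unadjusted p = 0.0525). For PAX5 it was -2.23 (SE 1.003; edgeR unadjusted p = 0.0450, adjusted p = 0.879), the 1 member called, on 4, 0 and 8 reads in the 3 AFB1 libraries. In this fit 200 of the 19815 genes were called higher and 390 lower. The FPKM ranges of these AFB1 and CON libraries overlapped for all 6 members, where 3.52% of all genes had ranges that did not.

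In the same comparison of AFB1 with CON, 4 of 9 plasma cell genes were called higher, which are JCHAIN (log2 fold change 2.63), MZB1 (3.42), SDC1 (3.00) and XBP1 (1.30). For SDC1 and XBP1, surface and secretory pathway genes that hepatocytes also use, the highest library was AFB1 replicate 1, at 21.3 and 224 FPKM, and without it their log2 fold changes were -0.13 and 0.43. Without AFB1 replicate 2, JCHAIN and MZB1 were at 0.72 and 0.91 and were not called. Without AFB1 replicate 1 the called plasma cell genes were JCHAIN, MZB1, DERL3 and TENT5C, also 4 of 9. IRF4 was the 1 transcription factor called of 9, at a log2 fold change of 2.44, which was 0.50 when AFB1 replicate 2 was left out. CR2 (4.11) and PIK3AP1 (1.77) were called of the 17 receptor genes, and neither was called without AFB1 replicate 1 (3.26 and 0.57), where BANK1 was. CR2 was not called without AFB1 replicate 2 either (3.71). Without AFB1_CUR replicate 2, 6 of the 17 receptor genes and 6 of the 9 plasma cell genes were called higher. None of the 11 survival genes, the 6 tested germinal centre genes or the 9 T cell genes was called. CR2 was also the 1 of 9 lymphoid chemokine and stroma genes called. Of the 10 myeloid genes, 6 were called higher with all libraries and 0 without AFB1 replicate 1. No member of the 4 NK, 7 all-leukocyte, 8 proximal tubule, 8 loop and distal nephron or 4 red cell genes was called, while 10 of 10 hepatocyte genes were, which fell to 0 without AFB1 replicate 1.

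Between AFB1_CUR and AFB1, whose 2 groups hold 1 leukocyte-rich library each, 0 of the 6 genes were called, where 1.03% of all genes were called higher, 4.22% lower and 5.26% in either direction. The estimates with all libraries ran from 0.70 (SE 0.98) for CD79A to 2.98 (SE 1.88) for PAX5. Without AFB1 replicate 1 they ran from 0.46 for POU2AF1 to 2.66 for PAX5, and 0 of the 6 were called. The direction of all 6 changed with which 1 of the 2 leukocyte-rich libraries was left out. For CD22 the liver-like AFB1 replicate 1 entered as well. It was at -1.77 without both leukocyte-rich libraries, and at 0.06 with AFB1 replicate 1 also left out. Without AFB1_CUR replicate 2 the 6 log2 fold changes ran from -1.55 for CD79A to -2.92 for POU2AF1, and CD22 (-2.32) and POU2AF1 were called lower. Of all 19815 genes tested, 162 were called higher in that fit and 819 lower. Without AFB1 replicate 2 the 6 estimates ran from 1.89 for CD79A to 7.68 for PAX5. MS4A1 (5.18), CD79B (3.89), PAX5 and POU2AF1 (3.29) were then called higher, where 523 of the 19815 genes were called higher and 1149 lower. With all 3 libraries left out, MS4A1 was at 0.144 to 0.341 FPKM in the 4 AFB1_CUR libraries and at 0.0757 to 0.0992 in the 3 AFB1 libraries. PAX5 was at 0.00856 to 0.0314 against 0 to 0.00730. For these 2 of the 6 members the ranges did not overlap, as for 5.23% of all genes. Both AFB1_CUR ranges lay within those of CON, 0.0263 to 0.983 for MS4A1 and 0.00461 to 0.0339 for PAX5. The edgeR log2 fold changes of these libraries were 1.32 (SE 0.92; unadjusted p = 0.175) and 2.09 (SE 1.02; unadjusted p = 0.0630), and 0 of 6 members were called. For the other 4 genes they were between -0.62 and 0.06.

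Of the lists, MYBL1 was the 1 germinal centre gene called of 6 between AFB1_CUR and AFB1, higher in AFB1_CUR at a log2 fold change of 1.62, which was 0.32 when AFB1_CUR replicate 2 was left out. SDC1 (-2.69) and XBP1 (-1.02) were the 2 of 9 plasma cell genes called, both lower in AFB1_CUR, and without AFB1 replicate 1 they were at 0.45 and -0.14 and were not called. None of the receptor, transcription factor, survival, chemokine, T cell, NK, all-leukocyte, nephron or red cell genes was called with all libraries. Without AFB1 replicate 2, 3 receptor, 1 transcription factor, 3 survival and 2 chemokine genes were called higher. So were 2 germinal centre genes (CXCR5 and MYBL1) and 1 plasma cell gene (POU2AF1), while SDC1 and XBP1 stayed called lower. Without AFB1_CUR replicate 2, 2 receptor, 2 transcription factor and 4 chemokine genes were called lower. So were 4 plasma cell genes (MZB1, POU2AF1, SDC1 and XBP1) and 1 germinal centre gene (CXCR5). CR2 and CXCR5 each count in 2 of these lists. CD14 and MARCO were the 2 of 10 myeloid genes called, both lower, and 10 of 10 hepatocyte genes were lower. Without AFB1 replicate 1 these counts were 0 of 10 and 2 of 10 (ALB and CYP2E1).

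Against CON, the AFB1_CUR group had 4 of the 6 genes called higher, where 1.13% of all genes were called higher, 0.51% lower and 1.64% in either direction. The log2 fold change was 5.13 (SE 2.09) for PAX5, 4.39 (SE 1.88) for MS4A1, 3.64 (SE 1.41) for CD22 and 3.32 (SE 1.504) for POU2AF1. CD79B at 3.28 (SE 1.61) and CD79A at 2.03 (SE 1.02) missed the threshold, with unadjusted p values of 0.0608 and 0.0651 in the edgeR fit. Adjusted over all 19815 genes, the p of each of the 6 was 1. A replicate block, weights for sample quality, and limma on log2(FPKM + 1) or log2(FPKM + 0.1) each left 0 of 6 called. The members were chosen for being high in AFB1_CUR replicate 2, and these calls are its levels seen again. Without that library all 6 log2 fold changes lay below 0, from -0.15 for PAX5 to -0.86 for CD79B, and 0 of 6 were called. Leaving out CON replicate 1, CON replicate 4 or CON replicate 5 left 1 of 6 called each time, and leaving out AFB1 replicate 2, a library of neither group, gave 6 of 6. Of the 19815 genes, 184, 141 and 160 were called higher without those CON libraries in turn, and 285 without AFB1 replicate 2. With all 3 libraries that stood apart left out, the 6 log2 fold changes ran from -0.14 to -0.85 with 0 called. The FPKM ranges of the groups then overlapped for all 6, and 1.13% of all genes had ranges that did not overlap. In the 4 remaining AFB1_CUR libraries CD79A was at 2.66 ± 0.461 FPKM and CD22 at 0.231 ± 0.0188 FPKM (mean ± SD, n = 4), against 3.07 ± 1.88 and 0.265 ± 0.150 in CON (n = 5). CD79B and PAX5 were more spread for their level, at 0.367 ± 0.184 and 0.0180 ± 0.0108 FPKM, against 0.660 ± 0.503 and 0.0198 ± 0.0137 in CON.

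**Figure D4:**
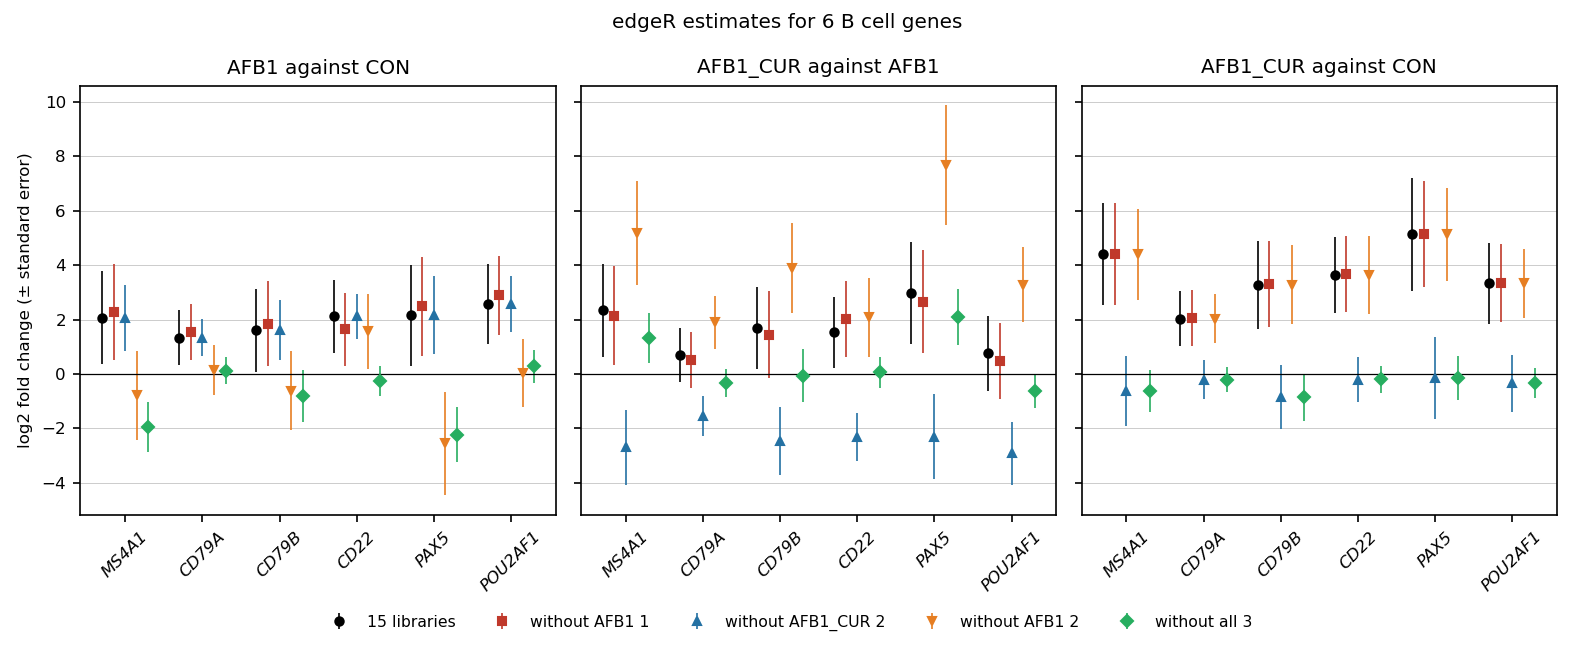
Log2 fold changes (vertical axis, bars are ± standard error) of the 6 B cell genes in 3 comparisons by edgeR's quasi-likelihood fit, with all 15 libraries and with named libraries left out, by colour and shape. Without AFB1_CUR replicate 2 the estimates against CON lie between -0.86 and -0.15, and the comparison of AFB1_CUR with AFB1 changes sign with the library left out.

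In the comparison of AFB1_CUR with CON, 7 of 17 receptor and coreceptor genes were called higher, where the median log2 fold change of the list was 1.04 and that of all genes was 0.00. The largest were CR2 (6.17), FCRLA (3.89), FCER2 (2.99), the low-affinity IgE receptor CD23, and FCRL1 (2.88), and the other 3 were BANK1, BLNK and BTK. Of 9 transcription factors, IKZF3 (1.72) and POU2F2 (1.64), an octamer-binding partner of POU2AF1, were called higher. TNFRSF13C (2.74), the receptor of the B cell survival factor BAFF, its ligand gene TNFSF13B (1.04) and CD86 (1.06) were called of 11 survival and costimulation genes. MYBL1 (1.80), MEF2B (1.44) and S1PR2 (1.04) were called of 6 germinal centre genes. JCHAIN (3.01) and POU2AF1 were called of 9 plasma cell genes, and CR2 of the 9 chemokine and stroma genes. The T cell, NK, all-leukocyte, hepatocyte, nephron and red cell lists had no called gene, and the myeloid list had ITGAM. Without AFB1_CUR replicate 2 no gene of these lists was called except the red cell gene HBB, CR2 was at 0.15 and FCRLA at -1.09.

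Across all genes, edgeR called 0 in each comparison after adjustment, while 1660, 1292 and 538 genes passed 0.05 before adjustment in the order above. DESeq2 called 17, 4 and 0 after adjustment, and limma 0. The split of calls was 938 higher and 283 lower between AFB1 and CON by edgeR, and 628 and 364 with DESeq2's size factors. Between AFB1_CUR and AFB1 it was 205 and 837 by edgeR, and 293 and 508 with DESeq2. Limma on log2(FPKM + 1) gave 37 and 190 for the first and 138 and 28 for the second.

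Genes with a pattern most like the mean of the 6 members were ranked by Pearson's r of log2(FPKM + 1) over the 14 libraries without AFB1 replicate 1, as a description with no test. The 10 most alike were LOC101119114, a putative P2Y purinoceptor 10, CXCR5, GAS7, PLA2G2D, ZC3H12D, AURKB, POU2F2, SH3KBP1, RHOH and IL21R, with r from 0.989 to 0.984. As many as 575 of 19809 genes had r above 0.9, and all share the 2 leukocyte-rich libraries. Over the 12 libraries 15 genes had r above 0.9, and the 10 most alike were SEMA4F, TMEM52, WDR59, ZMIZ1, CACNB1, MAP4K1, DAAM2, VPS16, MYOC and INF2, with r from 0.929 to 0.910. The 2 groups of 10 had 0 genes in common. The members themselves were less alike without the 2 libraries. Each gene against the mean of the other 5 had r from 0.937 (PAX5) to 0.991 (MS4A1) over 14 libraries, and from 0.555 (POU2AF1) to 0.809 (CD79B) over the 12. Among the 12, MAP4K1, a kinase of lymphocyte receptor signalling, ran from 0.984 FPKM in CON replicate 5 to 6.08 in CON replicate 2, the libraries that were also the lowest and the highest for MS4A1 and CD79A.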

How the data were processed

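RNA labelled as kidney from 15 sheep (CON, AFB1 and AFB1_CUR, n = 5 each) was sequenced as poly(A)-selected, paired-end libraries. The submitters' processing notes name cutadapt 1.9, HISAT2 2.2.1, StringTie 2.1.6, DESeq2 and edgeR. The authors deposited raw read counts and FPKM values for 25592 genes. Neither the counting tool nor the build is given in the sources used here. The files' start and end equal those of the RefSeq table for ARS-UI_Ramb_v3.0 for 99.6% of 24947 genes matched by symbol and for all 6 members, and coordinates are the files' own. Groups were taken from the sample titles, since the treatment field counts upward within a group. The members and gene lists were chosen with earlier results of these data known.

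The filter kept genes that reached 10 counts in 5 or more libraries (19815, all 6 members among them, PAX5 with 8 such libraries), which were tested with edgeR 4.0.16 (R 4.3.3; TMM, glmQLFit and glmQLFTest, 3 groups in 1 fit) on the deposited counts. Calls follow the thresholds of the study's screen, p below 0.05 and fold change over 1.5. The study does not state whether its p was adjusted, and calls here use p before adjustment. The p-values were also adjusted over all genes tested by the Benjamini-Hochberg method. The p-values rest on the spread between libraries within groups, estimated over the 3 groups together. That spread includes the 3 libraries that stood apart, so it mixes tissue content with variation between sheep. Pens of 2 sheep were not modelled. Alternatives were DESeq2 1.42.0, limma 3.58.1 on log2(FPKM + 1) and log2(FPKM + 0.1), other filters, sample quality weights, a replicate block and libraries left out. Scripts were tested on simulated data. Limits for a count of 0 are 3 counts and cover counting error only. The text names the 6 members, the 10 genes most alike over 14 and over 12 libraries, and from each B cell list up to 4 called genes with the largest change. Other genes of the lists (such as MZB1, TNFRSF13B, RGS13, CXCL13, CD3E, CD81, DERL3, TENT5C, PRDM1, NKG7, NCR1, GNLY, BANK1, BLNK, BTK, ITGAM, CD14, MARCO and HBB, and IRF4, JCHAIN, MYBL1 and CXCR5 for their levels) were named after their values were seen.

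The replicate numbers of the titles were checked for pairing. Over 15 same-numbered pairs, deviations from the group means had r from -0.12 to 0.35 (median 0.05), with 4 pairs over 0.1. The 3 pairs of number 2, which both leukocyte-rich libraries carry, were the highest (0.22, 0.23 and 0.35). Since the other pairs but 1 were not over 0.1 and no source states a pairing, the numbers were not taken to pair the samples. No sequence is shown, and some genes of the lists are not reported here.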

Additional observations from a re-analysis of the deposited data

Results flagged for a closer look

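In 11 of 18 groups of 5 libraries (6 genes in 3 groups), the highest library lay far from the others by Dixon's ratio of gap to range, 0.888 to 0.998 against a critical value of 0.71. Chance passes about 1 group in 20, but the genes were chosen for these levels, so the count is a description and is not read against that rate. In the AFB1_CUR group it was replicate 2 for all 6 genes, at 46.3 FPKM for MS4A1, 62.6 for CD79A, 37.1 for CD79B, 18.9 for CD22, 4.17 for PAX5 and 8.88 for POU2AF1. In the AFB1 group it was replicate 2 for 5 genes, at 7.57 FPKM for MS4A1, 27.6 for CD79A, 9.13 for CD79B, 0.475 for PAX5 and 4.40 for POU2AF1. CD22 in AFB1 was not among them, since AFB1 replicate 1 was also high. No CON library was far from its group by this measure. The 11 values come from 2 libraries and are not independent.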

How the results depend on the processing

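AFB1_CUR replicate 2 and AFB1 replicate 2 were the highest and the second highest for 6 of 6 members on both scales. The 10 genes most alike over 14 libraries had 0 in common with those over 12. Called members between AFB1 and CON, 0 with all libraries, were 1 with only the libraries of the 2 groups, 1 (PAX5) without both leukocyte-rich libraries, 1 (PAX5) without all 3, and 0 to 2 leaving out 1 library. Between AFB1_CUR and AFB1, also 0, they were 1 with a replicate block, 1 (PAX5) without both leukocyte-rich libraries, and 0 to 4 leaving out 1 library. Between AFB1_CUR and CON, 4 with all libraries, they were 1 with DESeq2, which gave a p for CD22 alone, 0 with the filter of FPKM 1, which tested CD79A alone, 0 with either limma fit, the replicate block or sample quality weights, 0 without both leukocyte-rich libraries and without all 3, and 0 to 6 leaving out 1 library. Under the alternatives 50 member estimates changed sign, with or without a change of call. Of those that kept their sign, 28 lost the call, 18 gained one and 324 had the same call. The cause of these changes was not tested. PAX5 and MS4A1 rest on few reads outside the 2 libraries, which limits their order.

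With sample quality weights the log2 fold changes that changed sign were -0.62 for MS4A1, -0.0773 for CD79B and -2.04 for PAX5 between AFB1 and CON. Between AFB1_CUR and AFB1 they were -0.57 for CD79A, -0.0551 for CD79B, -0.19 for CD22, -0.39 for POU2AF1 and 0.0626 for SDC1, and against CON -0.13 for CD79B and -1.14 for FCRLA. Without both leukocyte-rich libraries, AFB1 against CON gave -0.77 for MS4A1, -0.61 for CD79B and -2.58 for PAX5. AFB1_CUR against AFB1 gave -0.35 for CD79A, -0.25 for CD79B, -1.77 for CD22 and -0.39 for POU2AF1. AFB1_CUR against CON gave -0.64 for MS4A1, -0.22 for CD79A, -0.86 for CD79B, -0.21 for CD22, -0.16 for PAX5, -0.35 for POU2AF1 and -1.10 for FCRLA. Without all 3 libraries, AFB1 against CON gave -1.96 for MS4A1, -0.79 for CD79B, -0.26 for CD22, -2.23 for PAX5 and -0.19 for SDC1. AFB1_CUR against AFB1 gave -0.33 for CD79A, -0.0585 for CD79B, -0.62 for POU2AF1 and 0.10 for SDC1. AFB1_CUR against CON gave -0.63 for MS4A1, -0.21 for CD79A, -0.85 for CD79B, -0.20 for CD22, -0.14 for PAX5, -0.34 for POU2AF1 and -1.08 for FCRLA.

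Leaving out 1 library, the log2 fold change between AFB1 and CON ran from -0.79 to 2.71 for MS4A1, from -0.61 to 1.898 for CD79B, from -2.55 to 2.48 for PAX5 and from -0.13 to 3.28 for SDC1. Between AFB1_CUR and AFB1 it ran from -2.70 to 5.18 for MS4A1, -1.55 to 1.89 for CD79A, -2.46 to 3.89 for CD79B, -2.32 to 2.08 for CD22, -2.30 to 7.68 for PAX5, -2.92 to 3.29 for POU2AF1 and -3.09 to 0.45 for SDC1. Between AFB1_CUR and CON it ran from -0.64 to 5.04 for MS4A1, -0.21 to 2.33 for CD79A, -0.86 to 3.59 for CD79B, -0.21 to 3.94 for CD22, -0.15 to 5.44 for PAX5, -0.35 to 3.63 for POU2AF1 and -1.09 to 4.24 for FCRLA.

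A replicate block turned PAX5 to -1.55 between AFB1 and CON, called 1 member between AFB1_CUR and AFB1 and 0 between AFB1_CUR and CON, and lowered the calls over all genes from 1221 to 609 and from 1042 to 413 in the first 2 comparisons. The numbers carry no stated pairing, and both leukocyte-rich libraries bear the number 2.

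Over all genes, calls between AFB1 and CON were 639 with the FPKM filter, 605 and 227 by limma with pseudocounts of 0.1 and 1, 704 with quality weights, 590 without all 3 libraries and 517 to 1673 leaving out 1. With only the 2 groups they were 917, and without both leukocyte-rich libraries 1529. Between AFB1_CUR and AFB1 they were 525, 579 and 166 under the same filter and limma fits, 1597 with no filter, 489 without all 3 and 341 to 1672 leaving out 1. Without both leukocyte-rich libraries they were 1342. Between AFB1_CUR and CON, 324 with all libraries, they were 131, 212 and 50, then 699 with no filter, 589 with 2 groups only, 604 with quality weights, 179 without both leukocyte-rich libraries and 170 to 525 leaving out 1. With DESeq2 they were 439.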

Other observations

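Of 3 antibody genes, which are no part of the lists above, all were above the 12 libraries in AFB1_CUR replicate 2 and 2 were in AFB1 replicate 2, in different proportions. These genes were picked after their values were seen, from the 20 with the largest ratio to the median of the 12 libraries in each library, and they belong to families with near-identical copies, so reads may have been split between copies. LOC101108522, annotated in the files as an immunoglobulin gamma heavy chain constant region, was at 691 FPKM in AFB1 replicate 2, 91.5 in AFB1_CUR replicate 2 and 1.42 to 23.5 in the 12 libraries. LOC101107475, annotated as an immunoglobulin alpha heavy chain, was at 33.1 FPKM in AFB1 replicate 2, within the 2.21 to 50.1 of the 12, and at 779 in AFB1_CUR replicate 2. LOC114118882, annotated as an immunoglobulin lambda chain, was at 153 and 172 FPKM against 0 to 21.5. The liver-like AFB1 replicate 1 had 0.592, 6.61 and 0.310 FPKM of these 3.

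A few genes outside the B lineage also separated the 2 libraries. LOC101107420, a membrane-associated phospholipase A2, was at 120 FPKM in AFB1_CUR replicate 2, 0.343 in AFB1 replicate 2 and at most 0.0747 in the 12. ALOX15, a lipoxygenase, was at 7.28 FPKM in AFB1_CUR replicate 2 and 0.0589 in AFB1 replicate 2, and LTF, which encodes lactoferrin, at 12.7 and 3.27. FABP4, the fatty acid-binding protein of adipocytes, was at 62.8 FPKM in AFB1 replicate 2 and 5.75 in AFB1_CUR replicate 2 against at most 4.59. LOC114117787, annotated as like the chemokine CCL17, was at 13.7 FPKM in AFB1 replicate 2 and listed at 0 in AFB1_CUR replicate 2. Serum amyloid A (LOC101121216) was raised in both, at 28.3 and 65.2 FPKM against at most 8.66, and was at 21.5 in AFB1 replicate 1. Each value is 1 library with no replicate.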
